A study of Mus musculus with 15 samples.

Results

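Calcineurin, the calcium-activated protein phosphatase, its NFAT substrates and the calcium/calmodulin-dependent (CaM) kinases were represented by 10 genes: Ppp3ca, Ppp3cb, Ppp3cc, Ppp3r1, Nfatc1, Nfatc2, Nfatc3, Rcan1, Camk2d and Camk4. They were taken by matching gene identifiers to these mouse symbols, which found all 10 among the 51912 genes of the table. Of these, 9 passed the filter on low counts and were tested. Camk4 did not pass, with 20 counts summed over the 15 libraries.

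Calcium entering a lymphocyte binds calmodulin, which then activates calcineurin and the CaM kinases. Calcineurin is a dimer of a catalytic A subunit and the calcium-binding regulatory B subunit, and it removes phosphates from NFAT transcription factors, which then move into the nucleus. In B cells this route lies downstream of the antigen receptor, and RCAN1 is both an inhibitor of calcineurin and the product of a gene that NFAT can switch on.

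The study's title places calcium signalling in the differentiation and survival of IgE+ plasma cells. B cells of wild-type mice were grown with 100 ng/ml IL-4 on 40LB feeder cells, a fibroblast line that supports B cell growth in culture. The D6 group was the unsorted culture at day 6. The other 4 groups were sorted at day 8, after 2 days off the feeder layer without stimulation: IgE iGC and IgG1 iGC, the labels' names for cells of either isotype that had not become plasma cells, and IgE PC and IgG1 PC, the plasma cells. Each group had 3 libraries of polyA RNA, given in the labels as biological replicates, and all 5 groups were wild-type with no further treatment. The sort gates are not given in the labels, D6 alone was taken on the feeder layer, and the cells came from culture rather than from an animal.

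Library totals ran from 17.7 M to 54.1 M expected counts. Levels are given below as CPM, counts relative to the library size, with library sizes scaled by the trimmed mean of M-values (TMM), a scaling that allows for the large immunoglobulin share of the plasma cells. That share was 15.3% to 21.7% of counts in plasma cells and 1.39% to 1.62% elsewhere. The summed level of 6 plasma cell markers was 9102 to 18767 CPM in PC libraries and 370.5 to 740.9 CPM in the others. That of 7 B cell and germinal centre markers was 6827 to 7279 CPM in iGC, 3931 to 4138 CPM at D6, 2429 to 2594 CPM in IgE PC and 3577 to 3876 CPM in IgG1 PC. Markers of feeder fibroblasts, 10 genes, summed to 260.9 to 394.0 CPM at D6, 39.5 to 76.6 CPM in iGC, 23.7 to 37.0 CPM in IgE PC and 75.7 to 197.3 CPM in IgG1 PC, with Postn at 0 in all groups but IgG1 PC. The 5 T cell markers summed to 58.9 to 67.9 CPM in IgE PC, 15.8 to 21.5 CPM in IgG1 PC, 12.9 to 18.6 CPM at D6 and 2.64 to 3.87 CPM in iGC. Of these Cd3e was at 0 outside IgG1 PC, and Cd28, which plasma cells are also known to express, was 3.60-fold higher in IgE PC than in IgG1 PC (edgeR adjusted p = 7.48e-08). The 5 myeloid markers summed to at most 8.58 CPM. In bulk RNA, fewer cells of a type and less RNA per cell cannot be told apart. The IgG1 PC libraries varied more among themselves than the other groups for most members, and values without single IgG1 PC libraries are given where they matter.

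The regulatory subunit and the 3 catalytic subunit genes were higher in IgE PC than in IgG1 PC, as were Nfatc3 and Camk2d, while Nfatc1 was lower. The Nfatc3 and Camk2d calls were lost when libraries were scaled to their total count (log2 0.24 and -0.04). In iGC cells the isotypes differed at 1 member (3.87% of all genes tested). From iGC to PC, 7 members fell in IgG1 cells (29.0% of all genes) and 4 in IgE cells (33.6%), and Ppp3cc rose in both. With libraries scaled to their total count, 8 fell in each. That scaling also moved the median log2 change of all genes, to -0.22 in IgG1 and -0.55 in IgE cells. The changes were tested with edgeR's quasi-likelihood test over all 15692 genes that passed the filter, with Benjamini-Hochberg adjustment and a threshold of 0.05.

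**Figure D1:**
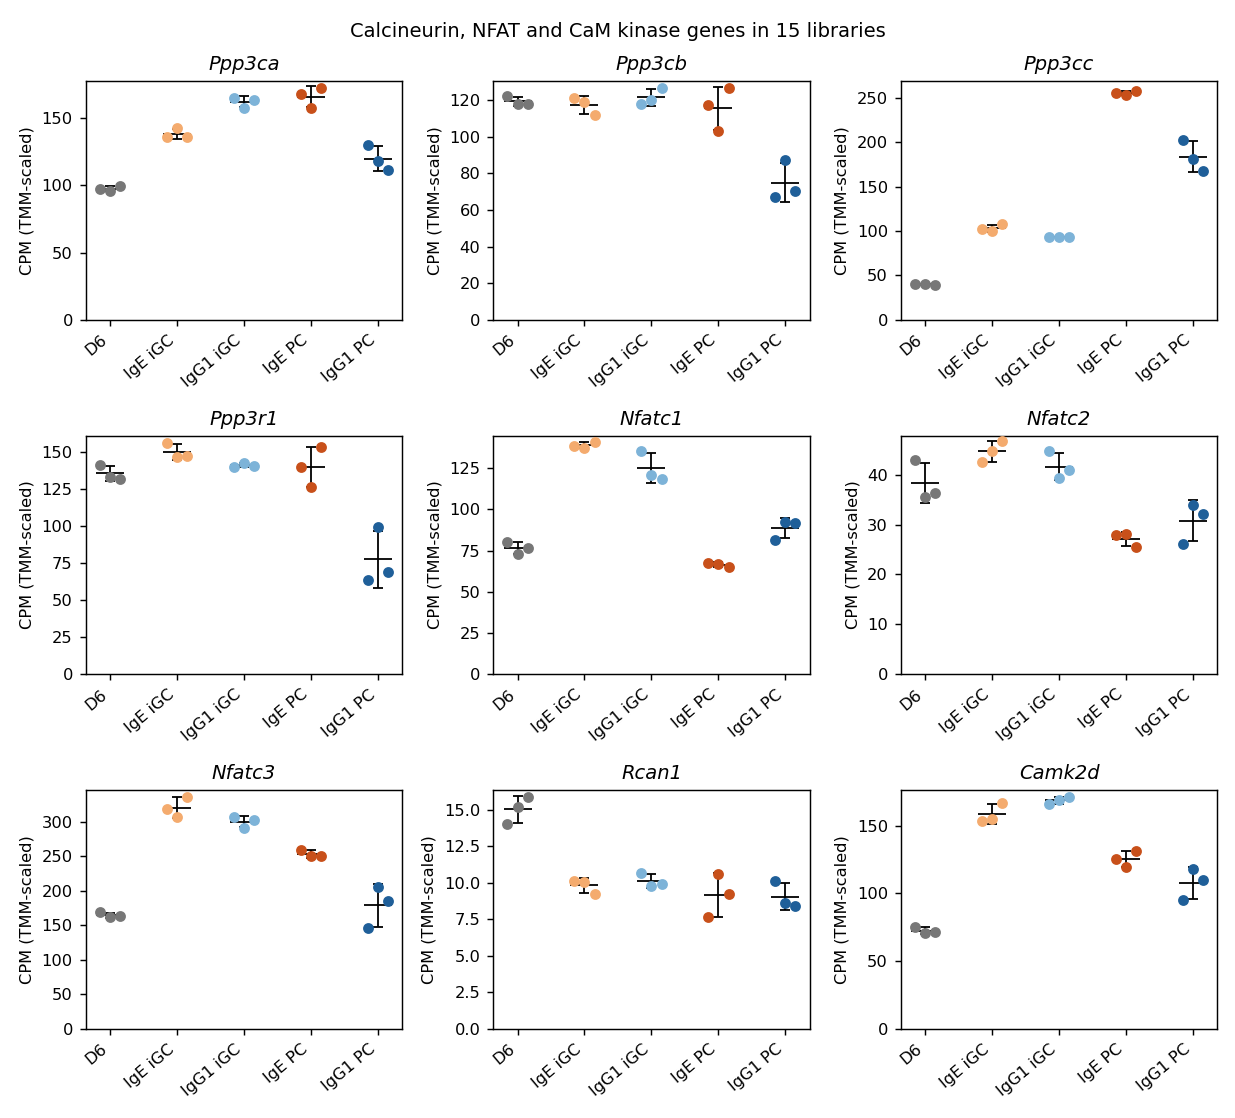
TMM-scaled CPM (linear axis from 0) of each of the 9 tested members in every library, by group; points are libraries, horizontal marks are the means of 3 and error bars are SD. Ppp3cc steps up from about 40 CPM at D6 to over 254 CPM in IgE PC, and Ppp3r1 and Ppp3cb are lowest in IgG1 PC.

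Ppp3cc encodes the gamma isoform of the catalytic subunit. It is on chromosome 14, 70217865 to 70289471, minus strand (GRCm38, as are all positions here). Its level was 40.4, 40.2 and 39.4 CPM at D6, 102.0, 99.9 and 107.4 CPM in IgE iGC, and 93.7, 93.1 and 93.2 CPM in IgG1 iGC. It was 255.3, 254.1 and 258.3 CPM in IgE PC and 202.3, 181.4 and 168.0 CPM in IgG1 PC. The order was D6, IgG1 iGC, IgE iGC, IgG1 PC, IgE PC, and no neighbouring groups in it overlapped. Ppp3cc was 2.48-fold higher in IgE PC than in IgE iGC (log2 1.31, SE 0.060, edgeR adjusted p = 2.24e-11) and 1.97-fold higher in IgG1 PC than in IgG1 iGC (log2 0.98, SE 0.059, edgeR adjusted p = 1.9e-09). Between plasma cells it was 1.39-fold higher in IgE (log2 0.48, SE 0.058, edgeR adjusted p = 5.52e-06). The rise was larger in IgE cells by 0.34 on the log2 scale (SE 0.083, edgeR adjusted p = 0.0045), but this difference of differences was 0.10 (adjusted p = 0.241) when libraries were scaled to their total count instead of TMM. In iGC cells the isotypes did not differ by the test, although their libraries did not overlap (log2 0.14, SE 0.059, edgeR adjusted p = 0.257).

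Ppp3ca, the alpha catalytic isoform, lies on chromosome 3, 136670124 to 136937727, plus strand. Its level was 97.7, 95.7 and 99.6 CPM at D6, 136.3, 142.5 and 136.4 CPM in IgE iGC, 165.5, 158.1 and 163.8 CPM in IgG1 iGC, 167.8, 157.4 and 172.9 CPM in IgE PC, and 130.1, 118.4 and 111.8 CPM in IgG1 PC. D6 was lowest, and only IgG1 iGC and IgE PC overlapped among neighbours in the order. It was the one member that differed between iGC isotypes, at 0.852 times the IgG1 level in IgE iGC (log2 -0.23, SE 0.058, edgeR adjusted p = 0.034). That call was lost without the count filter (edgeR adjusted p = 0.0654) and in each of the 6 fits that dropped an iGC library (edgeR adjusted p up to 0.138). In plasma cells the order of the isotypes was the opposite, with Ppp3ca 1.38-fold higher in IgE (log2 0.47, SE 0.058, edgeR adjusted p = 5.86e-06). Ppp3ca fell by 0.44 from iGC to PC in IgG1 cells (SE 0.058, edgeR adjusted p = 1.15e-05). In IgE cells it rose by 0.26 (SE 0.058, edgeR adjusted p = 0.00088), but with total-count scaling the same step was a fall of -0.21. The 2 steps differed by 0.70 (SE 0.082, edgeR adjusted p = 9.23e-06), and by 0.47 to 0.76 over the 18 alternatives tried. None of these corrected the counts for transcript length, which is described for Ppp3ca below.

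Ppp3cb, the beta catalytic isoform, lies on chromosome 14, 20499364 to 20546573, minus strand. The IgG1 PC libraries had 67.1, 87.3 and 70.5 CPM. The others had 122.3, 118.0 and 118.2 CPM at D6, 121.2, 118.8 and 111.7 CPM in IgE iGC, 117.8, 120.1 and 126.9 CPM in IgG1 iGC, and 117.2, 103.1 and 126.4 CPM in IgE PC. IgG1 PC was below every other library, and the other 4 groups overlapped in sequence. Ppp3cb was 1.54-fold higher in IgE PC than in IgG1 PC (log2 0.62, SE 0.089, edgeR adjusted p = 2.58e-05) and fell by 0.70 from IgG1 iGC to IgG1 PC (SE 0.089, edgeR adjusted p = 8.39e-06). The IgE step did not pass the test (log2 -0.02, SE 0.089, edgeR adjusted p = 0.848) but was called at -0.49 with total-count scaling (edgeR adjusted p = 0.000329). The 2 steps differed by 0.67 (SE 0.125, edgeR adjusted p = 0.000555).

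Ppp3r1 encodes the calcium-binding B subunit that all catalytic isoforms need, and lies on chromosome 11, 17159263 to 17200375, plus strand. It had 63.4, 99.7 and 69.3 CPM in IgG1 PC, against 139.9, 126.8 and 153.2 CPM in IgE PC. The remaining groups had 141.4, 133.3 and 132.0 CPM at D6, 156.3, 146.9 and 147.4 CPM in IgE iGC, and 140.0, 142.9 and 140.8 CPM in IgG1 iGC. As for Ppp3cb, IgG1 PC alone stood below every other library. Ppp3r1 was 1.80-fold higher in IgE PC than in IgG1 PC (log2 0.85, SE 0.123, edgeR adjusted p = 3.2e-05), the largest difference in that direction among the members. It fell by 0.86 from IgG1 iGC to IgG1 PC (SE 0.123, edgeR adjusted p = 2.72e-05), while the IgE step was -0.10 (SE 0.122, edgeR adjusted p = 0.482), or -0.57 with total-count scaling (edgeR adjusted p = 0.00124). The steps differed by 0.76 (SE 0.173, edgeR adjusted p = 0.00254). The expected count of Ppp3r1 was fractional in 13 libraries, because some reads were divided with other genes, so its value is uncertain to that extent; no other member had a fractional count.

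The IgG1 PC values of Ppp3r1 and Ppp3cb followed the same order, with replicate 2 the highest. Without replicate 2 the Ppp3r1 difference between plasma cells was 1.08, and without replicate 1 it was 0.73; for Ppp3cb these were 0.75 and 0.55. Feeder fibroblast markers summed to 197.3, 75.7 and 196.7 CPM in IgG1 PC replicates 1 to 3, against at most 37.0 CPM in IgE PC, and their part in these differences was not tested. Over all 15 libraries the log2 CPM of Ppp3cb and Ppp3r1 correlated at r = 0.98, a description over libraries that share groups and scaling.

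Because this pair moved together, the 250 bases before their annotated starts are shown (RefSeq, GRCm38.p6), with each match to GGAAA, the core that NFAT proteins bind, or its reverse complement TTTCC in capitals. Such windows were used for 6 of the 10 members, 9 windows in all, and GGAAA was sought on both strands. Windows of the other members were absent or not used. The Ppp3r1 window is chr11:17159048-17159297, plus strand, and the Ppp3cb window is chr14:20546574-20546823, minus strand, read 5′ to 3′ on the gene's strand.
Ppp3r1: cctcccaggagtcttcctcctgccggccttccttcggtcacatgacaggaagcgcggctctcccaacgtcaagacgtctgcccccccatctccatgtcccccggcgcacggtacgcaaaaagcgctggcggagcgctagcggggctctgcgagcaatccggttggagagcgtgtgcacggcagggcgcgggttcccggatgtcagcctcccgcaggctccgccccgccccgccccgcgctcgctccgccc
Ppp3cb: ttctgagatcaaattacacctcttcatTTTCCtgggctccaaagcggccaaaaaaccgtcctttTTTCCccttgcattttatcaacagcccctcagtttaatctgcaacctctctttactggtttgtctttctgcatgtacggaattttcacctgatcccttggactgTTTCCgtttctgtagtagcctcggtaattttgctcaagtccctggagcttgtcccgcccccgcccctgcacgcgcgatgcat
The Ppp3r1 window has no match to GGAAA and the Ppp3cb window has 3. Of all 32851 windows, 55.6% have at least 1 and 6.39% at least 3. The GC box GGGCGG, counted on both strands, occurs 4 times for Ppp3r1 and 2 times for Ppp3cb. At least 1 is found in 32.7% of all windows, at least 2 in 16.7% and at least 4 in 4.09%. GC content was 70.8% for Ppp3r1 and 48.4% for Ppp3cb, against a median of 52.4%. Matches of letters are a description of these windows and not evidence of binding.

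Levels of different genes were set side by side on the TPM scale, which is per length. Of the summed TPM of the 3 catalytic genes, Ppp3cc held 23.5% ± 0.251 at D6, 40.7% ± 0.946 in IgE iGC, 36.6% ± 0.298 in IgG1 iGC, 60.7% ± 1.07 in IgE PC and 59.7% ± 0.856 in IgG1 PC (mean ± SD, n = 3 each). Ppp3cb held 48.9% ± 0.441 at D6, the largest share there, and 18.7% ± 1.46 in IgE PC and 16.2% ± 2.94 in IgG1 PC, the smallest share in both plasma cell groups. The leading catalytic transcript was therefore Ppp3cb at D6 and Ppp3cc in the 4 sorted groups. The Ppp3cc share was 20.1 percentage points higher in IgE PC than in IgE iGC and 23.1 points higher in IgG1 PC than in IgG1 iGC, each at the smallest two-sided exact permutation p that 3 against 3 libraries allow, 0.1 (0.13 once adjusted by Benjamini-Hochberg for the 56 share and ratio tests). Between plasma cell isotypes the Ppp3cc shares overlapped, differing by 0.968 points (exact permutation p = 0.3).

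The summed TPM of the catalytic genes per TPM of Ppp3r1 was 1.83 ± 0.0607 at D6, 2.48 ± 0.0864 in IgE iGC, 2.64 ± 0.0548 in IgG1 iGC, 4.43 ± 0.302 in IgE PC and 6.03 ± 1.61 in IgG1 PC (mean ± SD, n = 3 each). The IgG1 PC libraries had ratios of 7.69, 4.48 and 5.92, which overlap those of IgE PC (4.37, 4.76 and 4.16). Both plasma cell groups were above all iGC and D6 libraries. These ratios are taken within a library and do not change with library scaling, but they carry the uncertainty of Ppp3r1.

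RSEM's effective length, the transcript length that converts counts to TPM, can be read from the ratio of count to TPM relative to other genes, and changes when a gene's reads are assigned to isoforms of other lengths. This measure was added after the values were seen and was not tested. For Ppp3cc it stayed within 99.97% to 100.04% of the D6 mean in every library. For Ppp3ca it was 71.5%, 83.9% and 80.0% of the D6 mean in IgG1 PC, below all other libraries (86.7% to 101.5%). For Camk2d it was 80.8%, 92.0% and 85.6% in IgG1 PC, again below all others (95.5% to 105.04%). The other 6 members stayed between 91.4% and 106.7%. Mean Ppp3ca was 43.5 TPM in IgE PC and 41.0 TPM in IgG1 PC, against 166.0 and 120.1 CPM. Mean Camk2d was 49.6 TPM in IgE PC and 55.2 TPM in IgG1 PC, the opposite order to its 125.5 and 107.8 CPM. TPM also differs from CPM in library scaling: Ppp3cc, whose effective length did not move, had 128.3 and 102.3 TPM against 255.9 and 183.9 CPM.

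The 3 NFAT genes encode calcineurin-regulated transcription factors, and they did not move alike. Nfatc3 (chromosome 8, 106058840 to 106130537, plus strand) had its highest levels in iGC, with 318.1, 307.5 and 336.8 CPM in IgE iGC and 307.4, 291.0 and 302.5 CPM in IgG1 iGC. It had 168.9, 161.3 and 163.3 CPM at D6, 259.8, 249.9 and 251.1 CPM in IgE PC, and 145.4, 206.1 and 184.9 CPM in IgG1 PC. IgG1 PC overlapped D6 and lay below IgE PC. Nfatc3 was 1.42-fold higher in IgE PC than in IgG1 PC (log2 0.50, SE 0.090, edgeR adjusted p = 0.000208). With total-count scaling this was 0.24 (edgeR adjusted p = 0.0686) and no longer passed. It fell from iGC to PC in both isotypes, by 0.34 in IgE (SE 0.090, edgeR adjusted p = 0.00374) and by 0.75 in IgG1 cells (SE 0.090, edgeR adjusted p = 4.64e-06). These falls differed by 0.41 (SE 0.127, edgeR adjusted p = 0.0174), or 0.16 (edgeR adjusted p = 0.421) with total-count scaling.

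Nfatc1, on chromosome 18, minus strand, encodes the NFAT protein with an inducible short isoform in activated lymphocytes; the gene-level table does not separate isoforms. It had 138.4, 137.4 and 141.0 CPM in IgE iGC and 135.6, 121.2 and 118.6 CPM in IgG1 iGC. Plasma cells had 67.7, 67.0 and 64.8 CPM (IgE) and 81.5, 92.4 and 91.6 CPM (IgG1), and D6 had 80.4, 73.0 and 76.6 CPM. IgE PC was below all other libraries and IgE iGC above them. Nfatc1 fell by 1.06 from IgE iGC to IgE PC, to 0.479 times the level (SE 0.063, edgeR adjusted p = 5.61e-10), and by 0.50 from IgG1 iGC to IgG1 PC (SE 0.062, edgeR adjusted p = 6.76e-06). It was the only member lower in IgE PC than in IgG1 PC by the test, at 0.751 times the level (log2 -0.41, SE 0.063, edgeR adjusted p = 4.84e-05). The steps differed by -0.56 (SE 0.089, edgeR adjusted p = 0.000138). This isotype difference between steps held its direction and call in all 18 alternatives, between -0.81 and -0.52.

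Nfatc2 (chromosome 2, 168476410 to 168601657, minus strand), the third calcineurin-regulated NFAT gene measured, had 43.0, 35.6 and 36.4 CPM at D6, 42.5, 44.8 and 46.8 CPM in IgE iGC and 44.7, 39.3 and 40.9 CPM in IgG1 iGC. It had 27.9, 28.1 and 25.5 CPM in IgE PC and 26.2, 34.0 and 32.2 CPM in IgG1 PC. All plasma cell libraries were below all iGC and D6 libraries, and the plasma cell isotypes overlapped. Nfatc2 fell by 0.72 in the IgE step (SE 0.096, edgeR adjusted p = 7.61e-06) and by 0.43 in the IgG1 step (SE 0.094, edgeR adjusted p = 0.0011). The plasma cell isotypes did not differ by the test (log2 -0.18, SE 0.096, edgeR adjusted p = 0.113), but did without IgG1 PC replicate 1 (-0.28, adjusted p = 0.00743) and with total-count scaling (-0.44, adjusted p = 0.00358).

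Within the summed TPM of the 3 NFAT genes, Nfatc3 held 70.1% ± 0.763 in IgE PC and 56.1% ± 3.00 in IgG1 PC, a difference of 14.0 percentage points. Nfatc1 held 23.0% ± 0.112 and 35.1% ± 2.44, a difference of -12.0 points. In each case the libraries did not overlap (exact permutation p = 0.1, the smallest possible; 0.13 adjusted over 56 tests; mean ± SD, n = 3 each). In iGC the Nfatc1 shares were 32.3% ± 0.825 in IgE and 31.4% ± 0.880 in IgG1 cells, and overlapped (exact permutation p = 0.3). Thus the Nfatc1 share was lower in IgE PC than in IgE iGC by 9.28 points and higher in IgG1 PC than in IgG1 iGC by 3.70 points.

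Rcan1, the calcineurin inhibitor, lies on chromosome 16, 92391953 to 92470867, minus strand. It had 14.0, 15.2 and 15.8 CPM at D6, 10.1, 10.1 and 9.25 CPM in IgE iGC, 10.7, 9.74 and 9.91 CPM in IgG1 iGC, 7.63, 10.6 and 9.20 CPM in IgE PC, and 10.1, 8.59 and 8.40 CPM in IgG1 PC. D6 stood above every other library and the 4 sorted groups overlapped in sequence. Rcan1 was lower than D6 by the test in each sorted group, with log2 differences of -0.61 in IgE iGC, -0.57 in IgG1 iGC, -0.72 in IgE PC and -0.74 in IgG1 PC (SE 0.107 to 0.108; edgeR adjusted p between 1.58e-05 and 0.000213). These comparisons share the D6 libraries, in which feeder fibroblast markers summed to at least 260.9 CPM, and the part of feeder RNA in them was not tested. Rcan1 passed the test in none of the comparisons among sorted groups (edgeR adjusted p from 0.189 to 0.933; unadjusted p from 0.136 to 0.827), but with total-count scaling both steps to PC were called lower, at -0.575 (IgE) and -0.405 (IgG1) on the log2 scale. The plasma cell difference between isotypes was 0.02 (SE 0.110), turning to -0.22 with total-count scaling.

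Rcan1 has 2 annotated windows, and they are shown because the gene is a known NFAT target whose starts differ in NFAT cores. The first is chr16:92466170-92466419 and the second chr16:92400079-92400328, both minus strand, with GGAAA and TTTCC in capitals.
Rcan1 window 1: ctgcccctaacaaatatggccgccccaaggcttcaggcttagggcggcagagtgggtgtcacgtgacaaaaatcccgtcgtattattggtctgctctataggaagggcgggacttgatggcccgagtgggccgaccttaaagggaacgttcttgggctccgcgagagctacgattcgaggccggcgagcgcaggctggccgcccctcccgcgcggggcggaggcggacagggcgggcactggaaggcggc
Rcan1 window 2: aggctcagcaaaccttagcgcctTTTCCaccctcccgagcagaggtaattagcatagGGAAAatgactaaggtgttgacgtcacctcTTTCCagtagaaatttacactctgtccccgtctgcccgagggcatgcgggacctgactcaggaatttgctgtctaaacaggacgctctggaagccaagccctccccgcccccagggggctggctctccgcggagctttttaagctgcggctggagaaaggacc
Window 1 has no match to GGAAA and 6 to GGGCGG on either strand (0.886% of all windows hold at least 6). Window 2 has 3 matches to GGAAA (6.39% of all windows hold at least 3) and 1 to GGGCGG (32.7% hold at least 1). It has 2 to TGACG, the core of the CREB site, which overlap on opposite strands. Of all windows, 17.8% hold at least 1 TGACG and 3.9% at least 2. The deposited table counts the whole gene, so it does not say which start the reads came from.

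Camk2d (chromosome 3, 126596302 to 126846326, plus strand) encodes the delta subunit of CaM kinase II, a multisubunit kinase activated by calcium and calmodulin. It had 75.0, 70.4 and 71.8 CPM at D6, 153.6, 155.0 and 167.1 CPM in IgE iGC, 166.2, 169.1 and 171.4 CPM in IgG1 iGC, 125.6, 119.8 and 131.1 CPM in IgE PC, and 95.3, 118.4 and 109.6 CPM in IgG1 PC. Only the iGC isotypes overlapped. Camk2d fell from iGC to PC by 0.34 in IgE (SE 0.069, edgeR adjusted p = 0.000472) and by 0.65 in IgG1 cells (SE 0.069, edgeR adjusted p = 1.18e-06). It was 1.16-fold higher in IgE PC than in IgG1 PC (log2 0.22, SE 0.069, edgeR adjusted p = 0.0132). This small difference turned to -0.04 with total-count scaling and missed the threshold when the 2 plasma cell groups were fitted alone (0.21, edgeR adjusted p = 0.114). On the TPM scale the mean was also lower in IgE PC, as given above.

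Camk4, on chromosome 18, plus strand, encodes a CaM kinase known from T cells and neurons. It had 8 counts at D6, 3 in IgE iGC, 5 in IgG1 iGC, 4 in IgG1 PC and 0 in IgE PC, each summed over 3 libraries. Its highest level in a library was 0.113 CPM. A count of 0 allows up to 3 counts over the IgE PC group, which is 0.0316 CPM, a limit that covers counting error only; the D6 mean was 0.0615 CPM. Camk4 entered no test.

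Between plasma cell isotypes, 7 of the 9 tested members were called, where 58.1% of all genes tested were: 6 were higher in IgE (27.4% of all genes) and 1 was lower (30.7%). The libraries of the isotypes did not overlap for 7 members, against 59.2% of all genes. The median member differed by 0.47 on the log2 scale and the median of all genes by -0.05. In iGC cells 1 of 9 was called, lower in IgE (3.87% of all genes were called, and 1.88% as lower). None was called higher by edgeR (1.99% of all genes were), with Ppp3cc and Nfatc1 higher at unadjusted p of 0.0296 and 0.0284. The iGC libraries did not overlap for 5 members, against 27.5% of all genes, and the median member differed by 0.09 against 0.01 for all genes. The count in plasma cells was 6 with total-count scaling, which shifts the median of all genes from -0.05 to -0.30 in this comparison.

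In the step from iGC to PC, 6 of 9 members were called in IgE cells, 2 higher and 4 lower, where 64.1% of all genes were called (30.5% higher and 33.6% lower). In IgG1 cells 8 of 9 were called, 1 higher and 7 lower, where 59.1% of all genes were called (30.1% higher and 29.0% lower). The median member changed by -0.11 in IgE and by -0.50 in IgG1 cells, and the median of all genes by -0.08 and 0.01. With total-count scaling 9 of 9 were called in either step, 1 higher and 8 lower, with shifted medians of all genes of -0.55 and -0.22. Libraries of iGC and PC did not overlap for 6 members in IgE cells (71.3% of all genes) and for 8 in IgG1 cells (61.2%). The interaction, which tests whether the steps differ, called 7 of 9 members, 6 with the more positive change in IgE and 1, Nfatc1, with the more negative (42.9% of all genes called, 19.8% and 23.1% by direction). With total-count scaling the interaction called 5 of 9, with a median of all genes of -0.30.

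**Figure D2:**
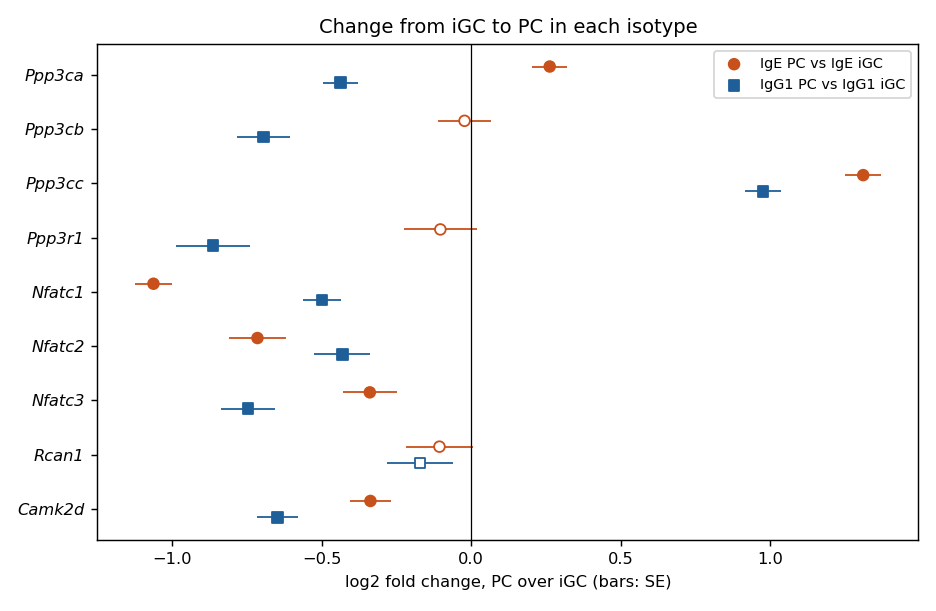
Log2 change from iGC to PC (edgeR, TMM scaling) for the 9 tested members in IgE and IgG1 cells; filled symbols passed the test, open ones did not, and bars are ± 1 SE. Ppp3cc rises in both, Nfatc1 falls by 1.06 in IgE against 0.50 in IgG1 cells, and Ppp3r1 and Ppp3cb are called in IgG1 cells alone. With total-count scaling the IgE rise of Ppp3ca turns to -0.21, and Ppp3r1, Ppp3cb and Rcan1 are called lower in both.

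The 4 sorted groups were each set against D6, with the same D6 libraries each time. Of 9 members 7 were called in IgE iGC (6 higher, 1 lower; 69.1% of all genes called, 32.8% higher and 36.3% lower) and 6 in IgG1 iGC (5 higher, 1 lower; 68.4%, 32.4% and 36.0%). In IgE PC 7 were called (4 higher, 3 lower; 76.4%, 36.9% and 39.5%) and in IgG1 PC 8 (4 higher, 4 lower; 71.9%, 35.9% and 36.0%). Libraries did not overlap those of D6 for 7 members in IgE iGC (77.2% of all genes), 6 in IgG1 iGC (77.6%), 7 in IgE PC (82.4%) and 8 in IgG1 PC (73.1%). Ppp3cc was 6.40-fold higher than D6 in IgE PC (log2 2.68, SE 0.063, edgeR adjusted p = 1.46e-14) and 4.60-fold higher in IgG1 PC (log2 2.20, SE 0.062, edgeR adjusted p = 1.9e-13). Camk2d was 2.19-fold higher in IgE iGC (log2 1.13, SE 0.070, edgeR adjusted p = 1.32e-09) and 2.33-fold higher in IgG1 iGC (log2 1.22, SE 0.070, edgeR adjusted p = 6.04e-10). Nfatc3 was 1.95-fold and 1.83-fold higher than D6 in IgE iGC and IgG1 iGC. Nfatc1 was 1.81-fold and 1.63-fold higher there, then 0.867 times D6 in IgE PC (edgeR adjusted p = 0.00796; 0.145 without IgE PC replicate 3) and 1.15 times D6 in IgG1 PC (edgeR adjusted p = 0.00778), where total-count scaling gave -0.07 on the log2 scale. Ppp3cb and Ppp3r1 differed from D6 by the test in IgG1 PC alone, by -0.67 (edgeR adjusted p = 6.24e-06) and -0.81 (edgeR adjusted p = 3e-05), except that with total-count scaling both were also called lower in IgE PC, at -0.58 and -0.49. When only the compared groups were fitted, Ppp3r1 was called higher than D6 in IgE iGC (0.20, edgeR adjusted p = 0.00113) and in IgG1 iGC (0.12, edgeR adjusted p = 0.0142). Nfatc3 in IgE PC (0.09) and Ppp3ca in IgG1 PC (0.01) no longer passed with total-count scaling. The Nfatc2 call in IgE iGC (log2 0.22, SE 0.094, edgeR adjusted p = 0.0485) was lost in 8 of 12 alternatives.

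The remaining genes of the pathway were followed in 7 lists of 56 genes, 51 of them tested. Their counts between plasma cell isotypes are to be read against the 58.1% of all genes called, 27.4% higher and 30.7% lower in IgE PC. Of the calmodulin genes, Calm3 was lower in IgE PC than in IgG1 PC (log2 -0.18, SE 0.053, edgeR adjusted p = 0.00782). Of 7 tested further calcineurin subunits and regulators, 1 was higher and 5 lower in IgE PC, with a median of -0.40. They included Akap5, an anchoring protein that binds calcineurin (-2.98, SE 0.368, edgeR adjusted p = 6.03e-06), Rcan3, a relative of RCAN1 (-1.04, SE 0.132, edgeR adjusted p = 7.64e-06), and Ppia, cyclophilin A, through which ciclosporin inhibits calcineurin (-0.57, SE 0.051, edgeR adjusted p = 2.04e-07). Akap5 had only 9, 3 and 6 counts in IgE PC, against 25, 109 and 68 in IgG1 PC. Rcan3 had 2.90, 2.65 and 2.41 CPM in IgE PC and 5.95, 5.11 and 5.42 CPM in IgG1 PC. The isotypes did not overlap for Rcan3.

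Of 9 genes listed under NFAT kinases and nuclear transport, 5 were higher and 1 lower in IgE PC than in IgG1 PC. Their median was 0.40. Besides kinases and transport genes, the list held Homer2, called higher, and Homer3, the 1 called lower. The Homer2 call was lost in 3 of 12 alternatives (edgeR adjusted p up to 0.0801). Gsk3b, a kinase that phosphorylates NFAT for export, had 118.2, 113.9 and 126.3 CPM in IgE PC and 64.2, 83.5 and 78.3 CPM in IgG1 PC (log2 0.66, SE 0.079, edgeR adjusted p = 4.26e-06). Of 8 tested further CaM kinases and their kinases, 1 was higher and 4 lower, with a median of -0.55, among them Camkk2, the kinase that activates CaM kinases I and IV (-1.10, SE 0.114, edgeR adjusted p = 9.74e-07). Camkk2 also fell in the IgE step by 2.05 (SE 0.114, edgeR adjusted p = 2.52e-10). Of 13 MEF2, CREB, CRTC and HDAC genes, targets of calcium and calmodulin signalling, 8 were higher and 1 lower, with a median of 0.29. The HDAC (histone deacetylase) genes in this list were Hdac4, Hdac5 and Hdac7. The largest were Atf1 (0.62), Crem (0.55) and Creb1 (0.51), with edgeR adjusted p from 3.47e-06 to 0.00347. With total-count scaling, which moved the median of all genes to -0.30, Creb1 was no longer called (0.25, edgeR adjusted p = 0.155). Neither Nfatc4 nor Nfat5 was called in this comparison (unadjusted p of 0.264 and 0.159). In iGC, of the 6 lists so far, only Hdac7 was called (0.24, SE 0.059, edgeR adjusted p = 0.0304), and it was not called in 7 of 12 alternatives.

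A list of 10 genes known to be induced through NFAT in lymphocytes was followed as well. All 9 tested genes were called between plasma cell isotypes, 8 lower in IgE PC and 1, Irf4, higher (58.1% of all genes were called, 30.7% lower and 27.4% higher); Fasl was below the filter. Egr3, an early growth response factor, had 1.02, 1.80 and 0.593 CPM in IgE PC and 8.19, 15.4 and 14.5 CPM in IgG1 PC (log2 -3.48, SE 0.292, edgeR adjusted p = 2.09e-07). Il2ra, the alpha chain of the IL-2 receptor, had 0.493, 0.600 and 0.767 CPM against 5.42, 9.36 and 9.74 CPM (log2 -3.74, SE 0.238, edgeR adjusted p = 6.03e-09). Tnf had 3.13, 3.06 and 1.92 CPM against 11.2, 17.1 and 18.0 CPM. The 2 isotypes did not overlap at any of these genes. Irf4, which is also a plasma cell marker, had 2211, 2230.3 and 2294 CPM against 1409, 1397 and 1224 CPM. Pdcd1 had 1 count in IgE PC and 104 in IgG1 PC. It was 23.9-fold lower in IgE PC when set there at 3 counts over the group. As 1 count was seen, that value is not a strict lower limit. Without Pdcd1 the median of the list was -3.03, and with Pdcd1 set at 3 counts -3.06, where the median of all genes was -0.05.

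In iGC cells 4 of these 9 genes were called, all lower in IgE, where 3.87% of all genes were called and 1.88% as lower: Nr4a3 (-2.04, SE 0.268, edgeR adjusted p = 0.000356), Il2ra (-1.71, SE 0.212, edgeR adjusted p = 0.00023), Nr4a1 (-1.32, SE 0.165, edgeR adjusted p = 0.000235) and Egr3 (-0.93, SE 0.220, edgeR adjusted p = 0.0285). Nr4a1 and Nr4a3 are nuclear receptors switched on by antigen receptor signals. In the IgE step 1 gene rose, Irf4 (4.49, SE 0.084, edgeR adjusted p = 3.28e-15), and 6 fell (64.1% of all genes were called), and in the IgG1 step 4 rose and 3 fell (59.1%). Egr3 had 12.9, 15.8 and 12.5 CPM in IgE iGC and 29.3, 25.4 and 24.0 CPM in IgG1 iGC, so it was lower in IgE cells at both stages. The interaction called all 9, 8 of them more negative in IgE (42.9% of all genes were called, 23.1% as more negative). Plasma cell markers summed to 646.9 to 740.9 CPM in IgE iGC and 370.5 to 391.4 CPM in IgG1 iGC. The iGC libraries of the isotypes did not overlap at any of the 6 markers, against 27.5% of all genes. Tnfrsf17 (7.17-fold), Jchain (2.68-fold) and Prdm1 (1.51-fold) were called higher in IgE iGC (edgeR adjusted p from 0.000282 to 0.0416), where 1.99% of all genes were. Of the B cell and germinal centre markers, 4 of 7 were also called lower in IgE PC than in IgG1 PC. So were all 8 tested feeder markers, where 30.7% of all genes were called lower. The part of these markers' cell types in the list's differences was not tested.

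**Figure D3:**
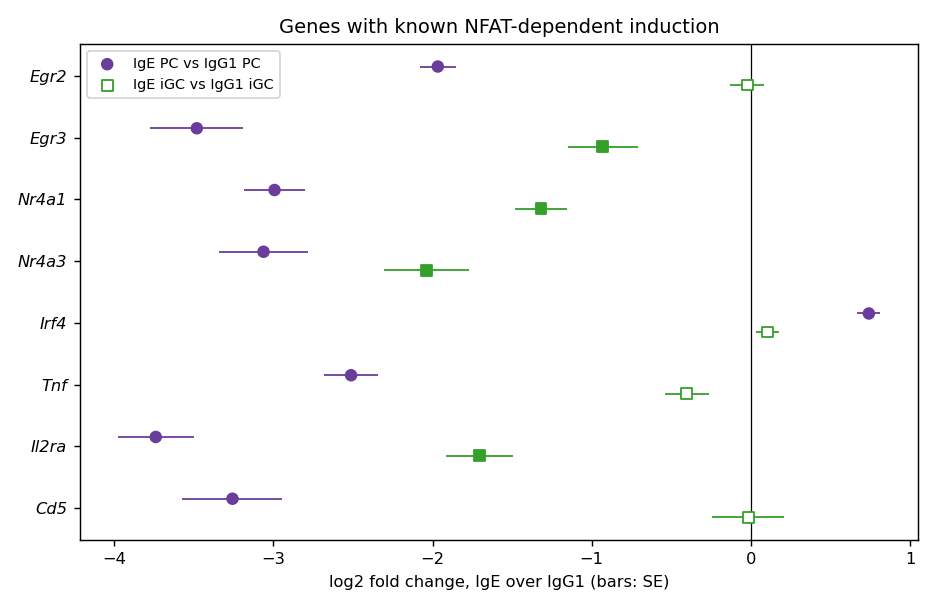
Log2 fold change of IgE over IgG1 cells (edgeR, TMM scaling) for 8 genes with known NFAT-dependent induction, in PC (circles) and in iGC (squares); filled symbols passed the test, open ones did not, and bars are ± 1 SE. In PC 7 genes lie left of 0 and Irf4 right of it; in iGC Egr3, Nr4a1, Nr4a3 and Il2ra pass, all left of 0, and Fasl and Pdcd1 are left out for their low counts.

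Genes whose log2 CPM over the 15 libraries was most like that of each member were found among those reaching a mean of 10 CPM in a group. The libraries share groups and scaling, so r is a description. Ppp3cc was followed most closely by Pou2af1, the B cell octamer coactivator, at r = 0.995, then Calcoco1 (0.995) and Otud5 (0.993). The nearest gene to Ppp3cb was Ppp3r1 itself (0.977), before Lypla1 and Slc25a46, while Ppp3r1 was nearest to Wtap (0.985), a subunit of the RNA methylation complex. Camk2d was nearest to Prkce, a protein kinase C gene, and Ptprc, the CD45 phosphatase (0.994 each). Nfatc1 was nearest to Arhgef18 (0.990), Nfatc3 to Snx30 (0.991) and Nfatc2 to Atxn7l1 (0.978). The weakest leading matches were those of Rcan1, with Gtf3c6 at 0.950, and of Ppp3ca, with mt-Rnr1 at 0.965. Among the members, Nfatc3 and Camk2d correlated at 0.93 and Nfatc1 and Nfatc2 at 0.82, while Ppp3cc and Rcan1 ran opposite at -0.84.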

How the data were processed

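The authors deposited 1 table with an expected count and a TPM value per gene and library. Per the file headers the count columns hold expected counts, estimates by RSEM that need not be whole; at least 90.9% were whole in every library. The TPM values were deposited by the authors beside them and are scaled for length and library total. Per the submitters' processing notes the tools were cutadapt 1.9.1, STAR 2.5.2a, RSEM 1.3.0 and DESeq2 1.12.3 with build GRCm38, with no role or order given; the annotation is not given in the sources used here. Per the labels' protocols the reads were single-end and strand-specific. Symbols matched 51633 of 51912 identifiers, and positions were taken from GENCODE vM21. Promoter windows were taken from RefSeq (GRCm38.p6); some windows are not shown.

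Expected counts were rounded, filtered with filterByExpr (minimum count 10, minimum total 15) and scaled by TMM. The 15 libraries entered 1 model with a mean for each group, in edgeR 4.0.16 under R 4.3.3 (glmQLFit with robust dispersion, glmQLFTest, two-sided, Benjamini-Hochberg adjustment over 15692 genes, threshold 0.05, 10 residual degrees of freedom, biological coefficient of variation 10.4%). The interaction is the IgE change from iGC to PC minus the IgG1 change. SE is the log2 difference divided by the square root of F, and is approximate. Shares were compared with exact permutation tests (scipy 1.17.1). On counts simulated for IgE PC against IgG1 PC (14927 genes), a log2 change of 1 was called for 46 of 46 genes and of -1 for 45 of 45. A change of 0.5 was called for 32 of 51 and of -0.5 for 33 of 58, and 4 of 14727 unchanged genes were called. The simulation used a common dispersion for all genes and the IgG1 PC means in every group. It changed few genes, all well expressed, whereas 58.1% of genes were called in the data. Its rates therefore do not describe the real comparison.

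All 10 members are named, and of each pathway list at most the 3 called genes with the largest change in a comparison, with per-library values added for some of them; Egr3, Tnf and Irf4 were named more often than that rule gives. The result of 1 pathway gene is not reported here. Members and lists were chosen with earlier results of these data known. All groups use the same replicate numbers; no label ties a number to an animal or culture, so p-values measure the spread between these libraries. Same-numbered deviations from the group means correlated at -0.0145 on average, with 0 of 30 pairs above 0.1, and the numbers were not used to pair libraries. Alternatives were other scalings, no filter, a replicate block, the compared groups alone, DESeq2 1.42.0 and each library left out.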

Additional observations from a re-analysis of the deposited data

Results flagged for a closer look

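In IgE cells the change from iGC to PC differed from that in IgG1 cells, by the interaction test of edgeR at an adjusted p under 0.05, for 7 members. The difference of the log2 changes, IgE minus IgG1, was 0.76 for Ppp3r1, 0.70 for Ppp3ca, 0.67 for Ppp3cb, 0.41 for Nfatc3, 0.34 for Ppp3cc, 0.31 for Camk2d and -0.56 for Nfatc1. Of these, Ppp3r1, Ppp3ca, Ppp3cb and Nfatc1 kept their call in all 18 alternatives, and the other 3 lost it with total-count scaling. All 18 used counts that were not corrected for effective length. For Ppp3ca the mean effective length was 78.5% of the D6 mean in IgG1 PC and 97.9% in IgG1 iGC. It was 91.9% in IgE PC and 92.5% in IgE iGC, and its part in the Ppp3ca difference was not tested.

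The same test also called further pathway genes, where 42.9% of all genes tested were called. Given here are at most the 3 with the largest change from each list. Any with at most 3 counts summed over a sorted group were left out. Rising more or falling less in IgE cells were Gsk3b (0.67), Crem (0.64), Csnk1a1 (0.61), Atf1 (0.54) and Creb1 (0.52). More negative in IgE cells were Cd5 (-3.24), Akap5 (-3.08), Egr3 (-2.55), Mylk (-2.50), Camk1 (-2.14), Rcan3 (-1.20), Camkk2 (-1.15), Homer3 (-0.78), Ppia (-0.60) and Calm3 (-0.20). The call was lost in 12 of 18 alternatives for Calm3 (edgeR adjusted p up to 0.148), in 11 for Creb1 (up to 0.314) and in 1, total-count scaling, for Atf1 (0.0639); the other genes named here kept theirs. Several of these genes had few counts per library in IgE PC: Akap5 3 to 9, Cd5 4 to 11, Mylk 7 to 11 and Camk1 8 to 12. Mean Mylk was 16.9 CPM at D6, 0.889 in IgE iGC, 0.463 in IgG1 iGC, 0.290 in IgE PC and 0.844 in IgG1 PC. Mean Camk1 in the same order was 5.85, 0.610, 0.658, 0.325 and 1.66 CPM. The part of feeder RNA in these levels was not tested. No explanation of these differences was tested.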

How the results depend on the processing

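Over 81 results for single members and 1026 alternative settings, 969 kept direction and call, 25 lost the call, 13 gained it and 19 changed sign. Total-count scaling turned these log2 differences: Rcan1 -0.22 and Camk2d -0.039 between plasma cells, Ppp3ca -0.21 in the IgE step, Cabin1 -0.045 in the IgG1 step, Rcan1 -0.17 in the interaction, and against D6 Ppp3cb -0.024 (IgG1 iGC), Ppp3r1 -0.49 (IgE PC), Nfatc1 -0.07 and Nfatc3 -0.15 (both IgG1 PC). With the compared groups alone Ppp3cb in IgE iGC against D6 was 0.027. With counts in place of TPM the share differences turned for Ppp3cb between iGC isotypes (0.474 points), Ppp3cc between plasma cells (-0.837) and Nfatc1 in IgE iGC against D6 (0.134). Leaving out 1 library at a time, Rcan1 ran from -0.094 to 0.144 between plasma cells, -0.068 to 0.001 between iGC isotypes, -0.228 to 0.011 in the IgE step and -0.053 to 0.185 in the interaction. Ppp3cb ran from -0.076 to 0.054 in the IgE step, -0.042 to 0.016 in IgE iGC against D6 and -0.057 to 0.037 in IgE PC against D6. Shares ran from -0.453 to 0.469 (Nfatc1, IgE iGC against D6), -0.247 to 0.0327 (Nfatc2, iGC isotypes) and -1.13 to 1.79 (Nfatc3, IgG1 PC against D6). Between iGC isotypes the 1 member called became 0 without the filter or any 1 library and 2 with the compared groups alone, and the 607 genes called overall became 1503 with those groups alone, 922 with DESeq2 and 323 to 403 with a library left out. The replicate block left 7, 1, 6, 8 and 7 members called in the first 5 comparisons and lost 1 member's call, Nfatc2 in IgE iGC against D6 (0.22, edgeR adjusted p = 0.0686). The causes of these changes were not tested. Camk4 had too few counts to be tested. With 3 libraries a group the exact tests could not go below 0.1 (0.25 for sign flips within the block).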
